A study of Mus musculus with 4 samples.

Results

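Transcripts typical of endothelial cells, the cells that line blood vessels, were followed in 4 RNA samples of dendritic cells sorted from the mouse colon. The set holds 9 genes of 20633 with a name on the array: Plvap, Pecam1, Cdh5, Kdr, Flt1, Tek, Emcn, Esm1 and Apold1. They are listed endothelial genes, each matched through its RefSeq accession, and all 12 of their probes, printed as 22 spots, were kept. The set was selected partly on the KO minus WT differences of Esm1, Plvap and Apold1 on these arrays, so the genotype differences below are a description without a test.

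The samples were lamina propria dendritic cells, from the connective tissue under the gut epithelium, freshly sorted by flow cytometry. The groups were CD300a-deficient (KO) germ-free (GF) mice, wild-type (WT) GF mice, KO mice kept specific pathogen-free (SPF) and WT SPF mice. All were C57BL/6J, and CD300a is an inhibitory receptor of myeloid cells. Every condition had 1 array and drew on cells of 5 mice, GF mice being labelled male and SPF mice female. Neither the age of the mice, the deleted part of Cd300a nor the gate of the sort is given in the sources used here.

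Endothelial cells sense vascular endothelial growth factors (VEGF) through the receptor tyrosine kinases encoded by Kdr and Flt1, and angiopoietins through the one encoded by Tek. They hold together through the adhesion molecules VE-cadherin (Cdh5) and PECAM-1 (Pecam1), and capillaries with pores carry the diaphragm protein encoded by Plvap. In the gut these vessels form the barrier between blood and the lamina propria. Several of the genes are not exclusive to vessels: Pecam1 is also expressed by platelets and leukocytes, and Flt1 and Tek by some monocytes.

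The promoter set used here, drawn from RefSeq's annotation of GRCm38.p6, held 6 of the 9 genes. Plvap, Pecam1 and Cdh5 were not in that set and are named only. The promoter of Esm1 is shown because Esm1 and Plvap were at least 2-fold lower on the KO-labelled array in both housings. That of Apold1 was added after its values were seen, because its difference turned round between housings. Each is 300 bases long, 250 before and 50 after the annotated start, on the plus strand, at chr13:113209409-113209708 for Esm1 and chr6:134981751-134982050 for Apold1. Capitals mark AGGAA, a core bound by ETS factors, on either strand (read as TTCCT on the minus strand), and TATAAA on the plus strand only.
Esm1: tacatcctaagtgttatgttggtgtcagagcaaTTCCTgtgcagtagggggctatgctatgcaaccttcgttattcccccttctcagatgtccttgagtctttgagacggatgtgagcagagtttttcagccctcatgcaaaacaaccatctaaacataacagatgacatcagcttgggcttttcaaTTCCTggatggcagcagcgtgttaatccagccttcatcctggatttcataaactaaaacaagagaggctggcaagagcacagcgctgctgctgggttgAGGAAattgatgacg
Apold1: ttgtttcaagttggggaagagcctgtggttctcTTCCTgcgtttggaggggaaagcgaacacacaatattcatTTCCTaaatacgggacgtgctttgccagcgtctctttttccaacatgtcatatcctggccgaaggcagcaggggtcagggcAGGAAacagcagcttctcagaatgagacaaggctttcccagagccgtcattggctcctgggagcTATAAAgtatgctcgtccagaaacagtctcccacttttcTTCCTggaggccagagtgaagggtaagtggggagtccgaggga
The ETS core occurred 3 times in the Esm1 promoter, at 217 and 63 bases before the start and 36 after it. It occurred 4 times in the Apold1 promoter, at 217, 177 and 96 bases before the start and 8 after it. TATAAA stood 32 bases before the Apold1 start and was not among the letters of the Esm1 window. Of 32851 promoters of this length, 66.7% held AGGAA on either strand and 12.7% held it 3 or more times. TATAAA was in 8.32% of them on the plus strand, the only strand searched for it in the endothelial genes, and in 13.6% on either strand. In the other 4 promoters the ETS core occurred once in Kdr, 2 times in Flt1 and in Tek, and 6 times in Emcn, and TATAAA once, in Flt1.

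Levels are log2 of the processed spot signal minus the 75th percentile of that array, so 0 is the 75th percentile. An error after ± is the scanner software's error of the spot, or of the mean where a probe has several spots, carried through to differences. The error falls with the number of spots printed, so probes with unlike spot numbers are not to be compared by it. It leaves out the spread between mice, and no difference has a replicate check. On the array, 15052 genes were well above background in KO GF, 14849 in WT GF, 13795 in KO SPF and 14421 in WT SPF cells. Cd300a was about as high in KO as in WT samples: its 1 probe read 8.05 in KO GF, 7.60 in WT GF, 7.91 in KO SPF and 7.88 in WT SPF cells. As the position of this probe relative to the deletion is not given, it does not check the labels, hence the wording KO-labelled. Xist, an RNA that female cells make from their silenced X chromosome, had a level of 3.62 in KO GF cells despite their male label, 5.45 in KO SPF and 4.87 in WT SPF cells, and was not above background in WT GF cells. The Y-linked Ddx3y read 0.59 in KO GF and 2.07 in WT GF cells and was not above background under SPF housing, and Eif2s3y read -0.59 in KO GF, 0.31 in WT GF and -2.56 in KO SPF cells and was not above background in WT SPF cells. The KO GF array thus carried both Xist and Y-linked RNA, and the GF genotype pair differed in Xist as well; the part of this in the other differences was not tested. Both GF arrays come from scan 2 and both SPF arrays from scan 1, per the file headers, so housing, labelled sex and scan cannot be told apart.

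Markers of the labelled cell type were present, beside those of other cells. Of 15 dendritic cell markers 14 were above background on all 4 arrays, among them H2-Ab1, a class II antigen presentation gene, at 7.24 in KO GF, 7.91 in WT GF, 8.47 in KO SPF and 8.41 in WT SPF cells. Itgax, which encodes the integrin CD11c, read 2.15 in KO GF, 3.19 in WT GF, 4.44 in KO SPF and 4.32 in WT SPF cells, lower on both GF arrays. All 11 macrophage markers were also above background on all arrays, and so were 7 of 11 epithelial markers, 10 of 10 fibroblast markers and 7 of 10 pericyte and smooth muscle markers. The same held for 12882 of all 20633 named genes, so these counts alone do not tell which cells were present. All 12 probes of the 9 genes were above background on every array. This is not a check of the endothelial label, since many genes were and other cells express several of the 9. Of 24 further barrier and surface genes 22 were above background on every array, Podxl on 2 and Adgrl4 on 1. Of 14 endothelial transcription factors 13 were above background on every array, and Erg on 1.

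**Figure D1:**
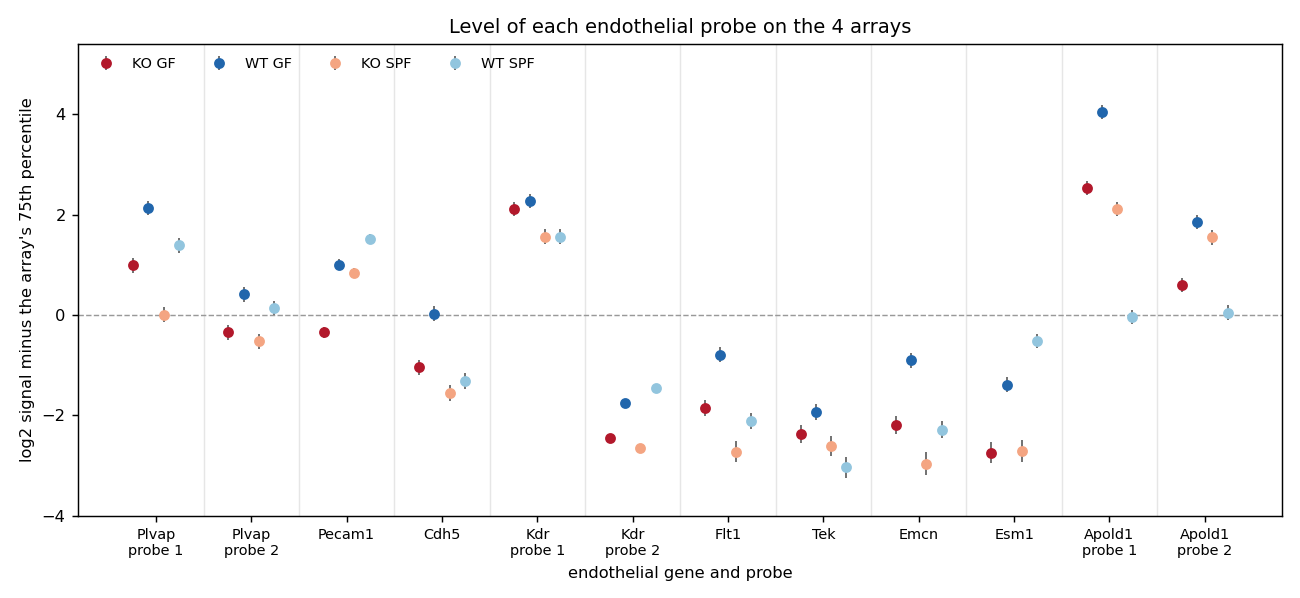
Level of each of the 12 endothelial probes on the 4 arrays, as log2 signal minus the array's 75th percentile; points are single arrays (from left KO GF, WT GF, KO SPF, WT SPF) and bars the scanner error. The WT GF point is the highest for 7 of the 9 genes, while Pecam1 and Esm1 are highest on the WT SPF array.

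Among the junction and surface genes, Plvap was lower on the KO-labelled array in both housings. Its brighter probe (NM_032398) read 0.99 ± 0.14 in KO GF, 2.13 ± 0.14 in WT GF, 0.01 ± 0.15 in KO SPF and 1.39 ± 0.14 in WT SPF cells. Both KO-labelled arrays thus lay under both WT arrays, with the GF array above the SPF array of the same genotype. The KO minus WT difference was -1.14 ± 0.20 under GF and -1.38 ± 0.21 under SPF housing, 2.21-fold and 2.60-fold lower. A second Plvap probe read -0.35 in KO GF, 0.41 in WT GF, -0.52 in KO SPF and 0.14 in WT SPF cells, the same order of arrays with smaller differences of -0.76 and -0.66.

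Pecam1 (NM_001032378), an adhesion molecule of cell contacts, was measured by 2 spots per array. They averaged -0.35 ± 0.10 in KO GF, 1.004 ± 0.10 in WT GF, 0.84 ± 0.10 in KO SPF and 1.51 ± 0.10 in WT SPF cells. The KO GF array was the low one, and Pecam1 was the only one of the 9 genes at least 2-fold lower in GF than in SPF KO-labelled cells (-1.19 ± 0.15). KO minus WT was -1.35 ± 0.15 under GF and -0.67 ± 0.14 under SPF housing.

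Cdh5 (NM_009868), the cadherin of endothelial junctions, read -1.04 ± 0.15 in KO GF, 0.02 ± 0.15 in WT GF, -1.56 ± 0.17 in KO SPF and -1.32 ± 0.15 in WT SPF cells. The WT GF array stood above the other three. The genotype difference was -1.07 ± 0.21 under GF housing and within about 1 error of 0 under SPF housing (-0.24 ± 0.23). Emcn (NM_001163522), the sialomucin endomucin of capillaries and veins, had the same high array, with -2.20 ± 0.18 in KO GF, -0.90 ± 0.15 in WT GF, -2.97 ± 0.23 in KO SPF and -2.29 ± 0.17 in WT SPF cells. Its genotype difference was -1.30 ± 0.23 under GF and -0.67 ± 0.29 under SPF housing.

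Of the receptors, Flt1 (NM_010228), a VEGF receptor that also acts as a decoy, read -1.86 ± 0.16 in KO GF, -0.79 ± 0.15 in WT GF, -2.72 ± 0.20 in KO SPF and -2.12 ± 0.16 in WT SPF cells. KO minus WT was -1.07 ± 0.22 under GF and -0.60 ± 0.26 under SPF housing. The WT GF array was again the high one. Tek (NM_013690), the angiopoietin receptor, read -2.38 ± 0.18 in KO GF, -1.93 ± 0.16 in WT GF, -2.62 ± 0.20 in KO SPF and -3.04 ± 0.20 in WT SPF cells. Its genotype differences, -0.44 ± 0.24 and 0.42 ± 0.28, were both under 2 errors.

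Kdr (NM_010612), the main signalling receptor for VEGF-A, gave different answers on its 2 probes. The brighter one, printed once, read 2.11 ± 0.14 in KO GF, 2.27 ± 0.14 in WT GF, 1.56 ± 0.14 in KO SPF and 1.56 ± 0.14 in WT SPF cells, with genotype differences of -0.17 ± 0.20 and 0.00 ± 0.20. On it the GF arrays were above the SPF arrays and the genotypes differed by less than the error. The second probe, printed 10 times, had its lowest, median and highest spots at -2.81, -2.42 and -2.21 in KO GF cells (9 spots left after flags) and at -2.06, -1.72 and -1.55 in WT GF cells. Its spots were at -3.31, -2.57 and -2.14 in KO SPF cells and at -1.60, -1.51 and -1.25 in WT SPF cells (9 spots). On this probe KO minus WT was -0.69 ± 0.08 under GF and -1.18 ± 0.09 under SPF housing. These spots are repeats of 1 probe on 1 hybridised sample and are not replicates of a condition. Over the 399 probes printed 10 times, the median SD between spots of an array was 0.23 to 0.29 at levels from -4 to -2 and 0.06 at levels from 2 to 8.

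**Figure D2:**
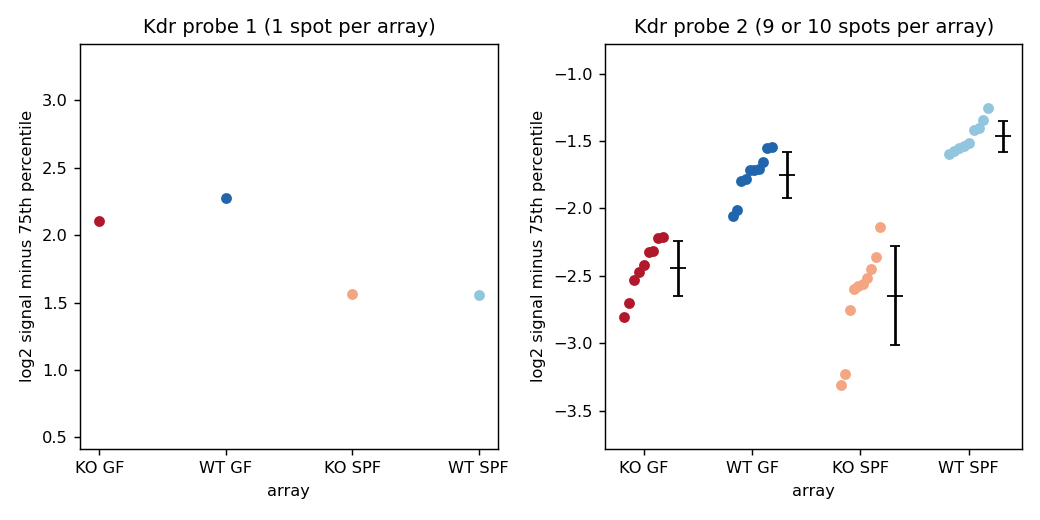
Every spot of both Kdr probes on the 4 arrays, as log2 signal minus the array's 75th percentile, sorted by level within an array; the bars on the right panel give the mean and SD over its 9 or 10 spots. Probe 1 shows the GF arrays above the SPF arrays, whereas on probe 2 the KO mean lies under the WT mean of the same housing.

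Esm1 and Apold1 are genes of activated endothelium. Esm1 (NM_023612), a secreted proteoglycan induced by VEGF and found in tip cells, read -2.74 ± 0.21 in KO GF, -1.39 ± 0.16 in WT GF, -2.71 ± 0.22 in KO SPF and -0.52 ± 0.15 in WT SPF cells. Both KO-labelled arrays were low and close to each other (GF minus SPF -0.04 ± 0.31), and both WT arrays were higher. KO minus WT was -1.35 ± 0.26 under GF housing, 2.55-fold lower, and -2.19 ± 0.27 under SPF housing, 4.55-fold lower. In order of size Esm1 stood 491st from the lowest of 15694 genes in the GF pair and 238th of 14875 in the SPF pair.

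Apold1 (NM_001109914), an early-response gene of endothelial cells, was the only one whose genotype difference was past 2-fold in both housings and opposite in sign. It read 2.53 ± 0.14 in KO GF, 4.04 ± 0.14 in WT GF, 2.12 ± 0.14 in KO SPF and -0.04 ± 0.15 in WT SPF cells. The KO-labelled arrays lay between the high WT GF array and the low WT SPF array. KO minus WT was -1.52 ± 0.20 under GF housing, 2.86-fold lower, and 2.16 ± 0.21 under SPF housing, 4.46-fold higher. A second probe read 0.59 in KO GF, 1.85 in WT GF, 1.54 in KO SPF and 0.04 in WT SPF cells, with differences of -1.26 ± 0.20 and 1.50 ± 0.20. Between housings, Apold1 was 17.0-fold higher in GF than in SPF WT cells (4.09 ± 0.20), and 0.41 ± 0.20 apart in KO-labelled cells on the brighter probe but -0.95 ± 0.20 on the second.

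**Figure D3:**
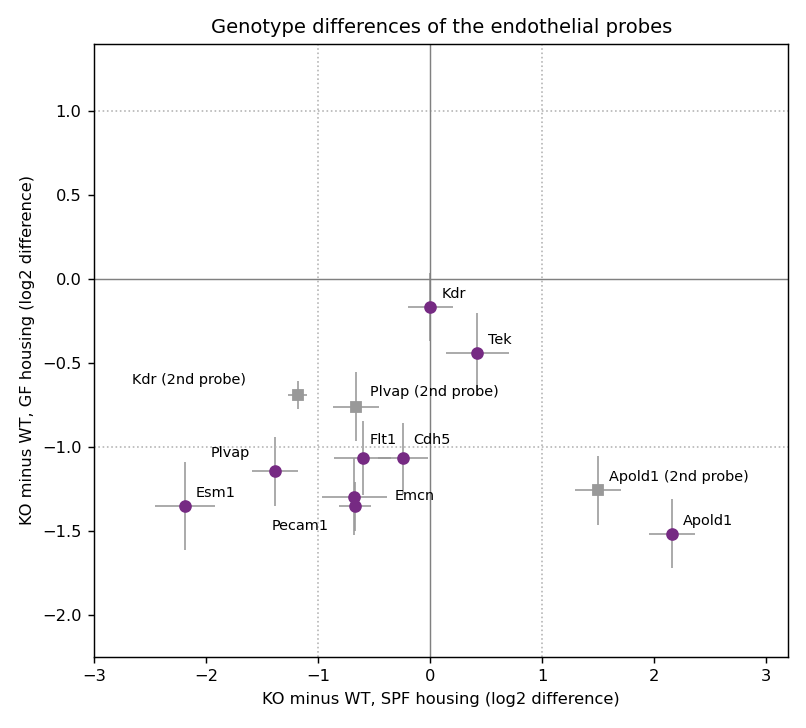
KO minus WT log2 difference of each endothelial probe under SPF housing (horizontal) and GF housing (vertical), with scanner errors as bars; circles are the probes that stand for a gene, squares the second probes, and dotted lines a 2-fold difference. Esm1 and the brighter Plvap probe lie past 2-fold lower on both axes, the second Plvap probe lies inside the 2-fold lines, both Apold1 probes lie at lower right, and every probe lies below 0 under GF housing.

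Counted together, 7 of the 9 genes were at least 2-fold lower and 0 higher on the KO GF than on the WT GF array, where 7.77% of 15694 measured genes were lower and 8.81% higher. The median was -1.14 against -0.20 for all genes, and all 9 were below 0, as were 61% of all genes. In the SPF pair 2 were at least 2-fold lower (Esm1 and Plvap) and 1 higher (Apold1), where 6.61% of 14875 genes were lower and 5.61% higher, and the median was -0.60 against -0.06. There 6 of the 9 were below 0, against 55.7% of all genes. Esm1 and Plvap were lower by 2-fold in both pairs, as were 0.648% of 14200 genes measured in both, and Apold1 turned round past 2-fold, as did 1.43%. Since the choice of genes used these pairs, nothing is read from these shares. In the GF pair the 2-fold mark was narrow for several: the deposited value table, with its own scaling, left 4 of the 7 lower past it, and normexp background correction left 3.

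The difference between the SPF and GF genotype differences, taken as SPF minus GF, was 3.67 ± 0.29 for Apold1, and for the other genes lay between -0.83 ± 0.37 (Esm1) and 0.86 ± 0.37 (Tek). It was -0.23 ± 0.29 for Plvap, within the error of 0. Cdh5 (0.82 ± 0.31) and Pecam1 (0.68 ± 0.21) exceeded 2 errors, and Flt1 (0.46 ± 0.34) and Emcn (0.62 ± 0.37) did not. With 1 array per group there is no residual degree of freedom and these differences were not tested.

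Housing differences are given as GF minus SPF and share their arrays with the genotype pairs. In WT cells Apold1, Emcn (1.39 ± 0.23), Cdh5 (1.34 ± 0.21), Flt1 (1.33 ± 0.22) and Tek (1.11 ± 0.26) were at least 2-fold higher on the GF array, 5 of 9, where 17.5% of 15653 genes were. None of the 9 was 2-fold lower, against 9.44% of all genes, and the median was 1.11 against 0.13. Plvap was 0.75 ± 0.20 higher, and Esm1 (-0.87 ± 0.21) and Pecam1 (-0.51 ± 0.14) lay lower. In KO-labelled cells none was 2-fold higher, against 21.6% of 15569 genes, and Pecam1 alone was 2-fold lower, against 15.4%. The median there was 0.51 against 0.05, and Plvap (0.98 ± 0.21), Flt1 (0.87 ± 0.26) and Emcn (0.77 ± 0.29) had the highest values. With normexp background correction 1 of the 9 was 2-fold higher in WT cells, at a median of 0.66, and 3 were in KO-labelled cells by the deposited value table. Above 0 lay 7 of the 9 genes in each genotype, against 56.4% of all genes in WT and 52% in KO-labelled cells. The WT GF array was the highest of the 4 arrays for 7 of the 9, and for 31.3% of genes measured in both genotype pairs. In bulk RNA, fewer cells of a type and less RNA per cell cannot be told apart.

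Other vessel genes were read from lists drawn up for this tissue. Of 24 genes of the endothelial barrier and surface, 22 were above background on all arrays. List counts hold a gene below background on 1 array to its lower bound; the shares of all genes, 7.77% lower and 8.81% higher in the GF pair and 6.61% lower and 5.61% higher in the SPF pair, and the medians use measured values. In the GF pair 8 of 23 measured were at least 2-fold lower and 0 higher, with a median of -0.81 against -0.20 for all genes. Cldn5, the claudin of tight junctions, read -0.97 on the KO GF and 0.76 on the WT GF array (-1.73 ± 0.21), and Procr, the protein C receptor, 0.05 and 1.63 (-1.58 ± 0.21). The highest were Jam2 (0.85 ± 0.21) and Nos3 (0.61 ± 0.25), a junction molecule and the endothelial nitric oxide synthase. In the SPF pair 1 of 24 (Cldn5) was at least 2-fold higher and 0 lower, with a median of -0.17 against -0.06. Cldn5 was the other way round there, at -1.33 on the KO SPF and -2.67 on the WT SPF array (1.33 ± 0.24), with Procr at 0.58 ± 0.20. The lowest were Egfl7 (-0.77 ± 0.20) and Icam2 (-0.71 ± 0.21).

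Of the transcription factors of endothelial identity, 4 of 14 were at least 2-fold lower and 0 higher in the GF pair, with a median of -0.83 against -0.20, and in the SPF pair 1 of 13 lower and 0 higher, with -0.14 against -0.06. Sox17, an arterial factor, read -2.48 on the KO GF and -0.99 on the WT GF array (-1.49 ± 0.25), and Gata2, a factor of blood and endothelium, -2.42 and -0.99 (-1.44 ± 0.24). Epas1, which responds to low oxygen, was the highest at 0.64 ± 0.20. Klf2, induced by shear stress, was lower in both pairs: 5.74 in KO GF against 7.07 in WT GF cells and 4.33 in KO SPF against 5.43 in WT SPF cells. Klf2 and several of these factors are also expressed by leukocytes. Erg, an ETS factor much more restricted to endothelium among these cells, was above background on the WT GF array only, where it was at least 1.46-fold higher than on the KO GF array.

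The ligands of the VEGF and angiopoietin receptors included some that were higher on the KO SPF array. Vegfa, the principal ligand of Kdr and Flt1, read 2.53 in KO GF, 2.75 in WT GF, 6.27 in KO SPF and 4.83 in WT SPF cells, high on both SPF arrays. KO minus WT was -0.22 ± 0.14 under GF and 1.44 ± 0.14 under SPF housing. Pgf, the placental growth factor that binds Flt1, read -0.40 in KO GF, 0.75 in WT GF, 5.25 in KO SPF and 4.08 in WT SPF cells, with differences of -1.15 ± 0.21 and 1.17 ± 0.20. GF minus SPF for Pgf was -5.65 ± 0.21 in KO-labelled and -3.33 ± 0.20 in WT cells. Angpt2, an angiopoietin that can block Tek, was not above background on the WT SPF array, and the KO SPF array was at least 5.09-fold above it. Angpt1, the activating ligand of Tek, was above background on the WT GF array only, at least 3.02-fold over the KO GF array. In all, 0 of 6 measured ligands were higher and 2 lower in the GF pair (median -0.71 against -0.20), and 3 higher and 0 lower of 6 in the SPF pair (0.74 against -0.06). Vegfd and Apln were not above background on any array. Of 7 further receptors and co-receptors, 0 were at least 2-fold higher or lower in either genotype pair, with medians of -0.38 and -0.17.

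Lists of vessel subtypes had medians of either sign. Among arterial and tip cell genes, the group to which Esm1 is often assigned, 2 of 11 were higher and 1 lower in the GF pair (median -0.18 against -0.20) and 3 of 11 higher and 0 lower in the SPF pair (0.49 against -0.06). Unc5b, a netrin receptor of tip cells, read 1.44 in KO GF, 0.09 in WT GF, -1.98 in KO SPF and -3.50 in WT SPF cells, higher on the KO-labelled array of both pairs. The arterial ligand Efnb2 read 2.56 in KO GF, 1.98 in WT GF, -0.09 in KO SPF and -1.78 in WT SPF cells. Esm1 was lower in both pairs, unlike Unc5b and Efnb2. Hey1 and Gja5 of this list also lay below 0 in both pairs, by less than 2-fold. Hey1 differed by -0.49 ± 0.21 under GF and -0.27 ± 0.21 under SPF housing, and Gja5 by -0.32 ± 0.21 and -0.26 ± 0.21. Of the activated venous genes, 2 of 7 (Icam1 and Vcam1) were lower and 0 higher in the GF pair (median -0.92 against -0.20) and 1 of 6 higher in the SPF pair (0.27 against -0.06). Icam1 and Selp, adhesion molecules for leukocytes, had KO minus WT differences of -1.14 ± 0.21 and -0.92 ± 0.07 under GF and 0.93 ± 0.21 and 1.45 ± 0.08 under SPF housing. Capillary genes had medians of 0.13 in the GF and 0.23 in the SPF pair, with 1 of 7 lower in the GF pair (Fabp4, a fatty acid binding protein, -1.01 ± 0.20) and none in the SPF pair.

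**Figure D4:**
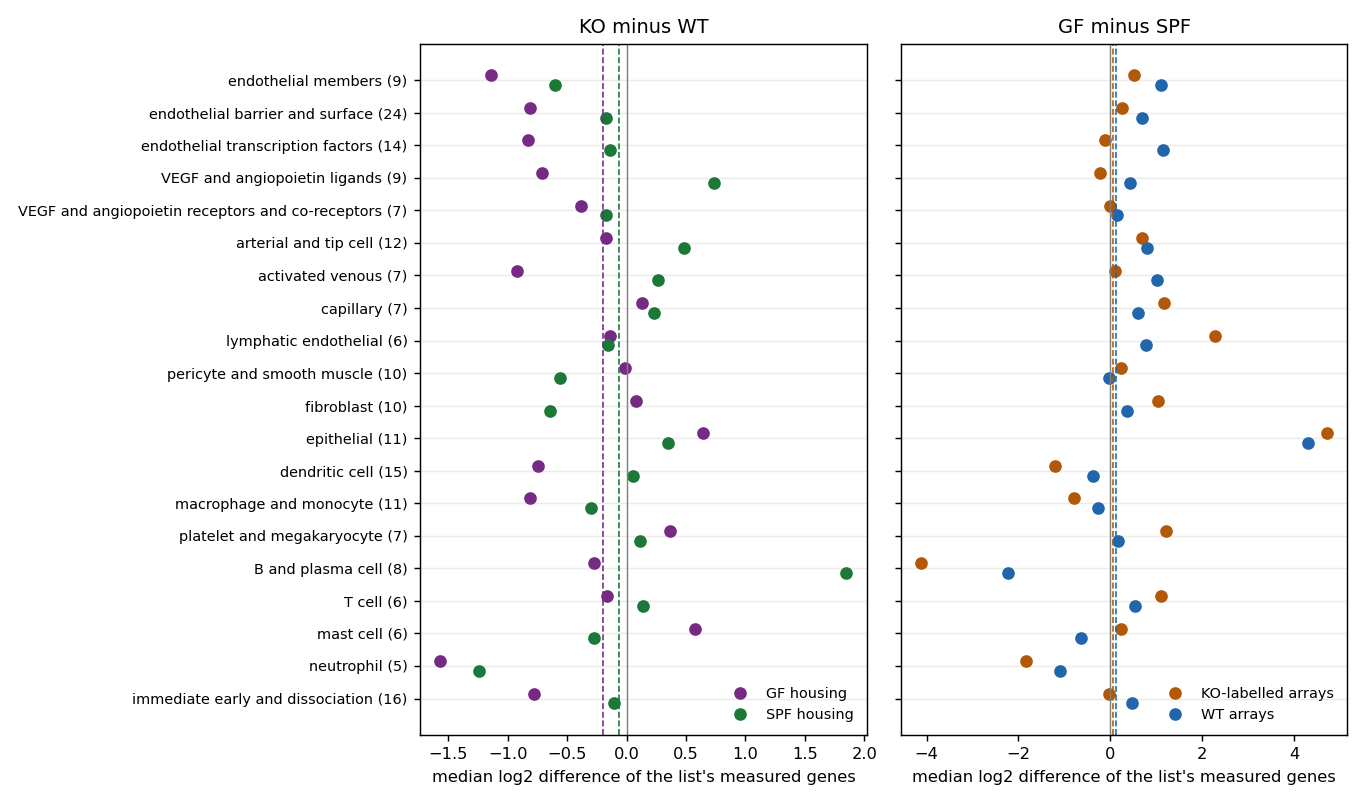
Median log2 difference of the measured genes of each list, KO minus WT on the left (purple GF, green SPF housing) and GF minus SPF on the right (orange KO-labelled, blue WT arrays); dashed lines are the medians of all genes and numbers in brackets the genes matched. In the GF pair the endothelial genes (-1.14) lie among several lists with medians below -0.7, and between housings the epithelial list stands far to the right.

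Markers of other cells are given beside these genes, with the same shares of all genes as their background. That background depended on brightness. With genes split by brightness into 4 groups, KO minus WT under GF housing had medians of 0.25, -0.08, -0.30 and -0.45 from dimmest to brightest. Of the brightest group 8.36% were at least 2-fold lower and 1.5% higher, and of the dimmest 11.4% and 22.7%. The lists and the 9 genes are set against all genes, and the part of brightness in their medians was not tested. In the GF pair the medians were -0.75 for dendritic cell markers (4 of 14 at least 2-fold lower, 0 higher), -0.81 for macrophage markers (2 of 11 lower, 0 higher) and -0.78 for immediate early and dissociation genes (3 of 16 lower, 0 higher, all 16 below 0). Epithelial markers ran the other way, with 3 of 11 higher, 0 lower and a median of 0.64, while pericyte (-0.01) and fibroblast (0.08) markers had medians near 0. Summed on a linear scale relative to each array's 75th percentile, the 9 endothelial genes came to 14.2 in KO GF, 30.5 in WT GF, 11.0 in KO SPF and 11.0 in WT SPF cells. Apold1 alone made up 5.77, 16.5, 4.33 and 0.971 of these sums in the same order, and the other 8 genes came to 8.40 in KO GF, 14.0 in WT GF, 6.69 in KO SPF and 10.06 in WT SPF cells. The immediate early genes summed to 1594 in KO GF, 2402 in WT GF, 1387 in KO SPF and 1417 in WT SPF cells, so that the WT GF array was the high one in both. It also had the highest sum for the endothelial transcription factor, activated venous, lymphatic, platelet and T cell lists. For the remaining lists another array did. The dendritic cell markers summed to 735 in KO GF, 1031 in WT GF, 1455 in KO SPF and 1411 in WT SPF cells, and the epithelial markers to 264 in KO GF, 187 in WT GF, 9.04 in KO SPF and 6.19 in WT SPF cells. In the SPF pair the fibroblast median was -0.65 (1 of 10 lower, 0 higher) and the pericyte median -0.56 (0 of 8 called), next to -0.60 for the endothelial genes. Neutrophil markers had medians of -1.57 in the GF pair (3 of 4 lower) and -1.24 in the SPF pair (3 of 5 lower), and B and plasma cell markers were higher in the SPF pair (1.85, 4 of 7 higher). Of the markers of platelets, which express Pecam1, Gp9 and Gp1ba were not above background on any array, while Pf4, also made by macrophages, read 6.26 in KO GF, 6.93 in WT GF, 4.76 in KO SPF and 4.57 in WT SPF cells. The part of these other cells in the endothelial differences was not tested.

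Genes with the most similar pattern were sought for Plvap and Esm1 by the distance between their 4 levels, each gene centred on its own mean, among 12882 genes above background on all 4 arrays. The closest to Plvap were Phyhd1 (0.21), Zfp456 (0.30), Rtp4 (0.32), Tnfaip8l2 (0.33) and Iba57 (0.33), and 25 genes lay within 0.5. Of the other 8 endothelial genes the nearest to Plvap were Emcn, 47th at 0.55, and Flt1, 67th at 0.60. The closest to Esm1 were Ltb (0.26), Gbp6 (0.41), Cxcr3 (0.49), Zfp781 (0.55) and Tcstv3 (0.57), and 3 genes lay within 0.5. Ltb, which encodes lymphotoxin beta, read -2.38 in KO GF, -0.93 in WT GF, -2.04 in KO SPF and -0.19 in WT SPF cells. The nearest endothelial gene to Esm1 was Pecam1, 174th at 1.14. With 4 arrays such a likeness is a description of these arrays.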

How the data were processed

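RNA of colonic lamina propria dendritic cells was amplified as cDNA and labelled with Cy3, per the labels' protocols, and hybridised to 1-colour Agilent arrays, 1 per group. Each deposited scanner file gives, per the file headers, a background-subtracted processed signal intensity per spot, made with Agilent Feature Extraction 10.10.1.1 (protocol GE1_1010_Sep10, design build mm9). A deposited table of intensity values served as an alternative; its columns, with medians of 331.4 in KO GF, 235.7 in WT GF, 216.3 in KO SPF and 237.2 in WT SPF, were the scanner signals multiplied by 7.96, 7.08, 8.24 and 8.30 in that order, linear and uncentred, by a rule that is unknown.

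Here, controls were removed together with spots that the scanner software had marked non-uniform or outlying, the rest were averaged per probe, and each array's 75th percentile of log2 signal was subtracted. RefSeq accessions were matched, without version, to GRCm38.p6 symbols, naming 27185 of 55597 probes (28412 stayed unnamed) and 20633 genes. A gene was represented by its brightest probe on average. A probe was above background where a share of 0.5 or more of its spots carried the scanner's flag for it. A gene was measured in a pair if above background on at least 1 of its arrays, and called at 2-fold. For a gene below background on 1 array, the text gives a bound: the brighter level against the higher of the dim probe's own level and the lowest level well above background there. No p-value is given, since each group has 1 array, and precision is limited by that number.

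The 9 genes and the 20 lists (206 symbols, 199 matched) were chosen with earlier results of these data known. By rule the text names all 9 genes with every probe, and takes the other names from the 2 highest and 2 lowest genes of a list in each genotype pair (not all are printed), markers not above background anywhere, the 5 genes closest to Plvap and to Esm1, and promoters of genes 2-fold different in the same direction in both pairs; a few further list genes (such as H2-Ab1, Itgax, Erg and Angpt1) were picked after their values were seen. Alternatives were quantile, cyclic loess and median scaling, the deposited table, flagged spots kept, genes above background on all arrays, and the mean over probes. The planned normexp setting needed a mean signal column that is not in the files used here; normexp on median signals (offset 50) and the probe printed most often were added after seeing the data. The steps were tested on simulated data with log2 changes of 2 in genes above background on all arrays. That test did not cover calls near 2-fold or the wider spread of dim probes. Python 3.11.15, pandas 2.3.3, matplotlib 3.10.9, R 4.3.3 and limma 3.58.1 were used.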

Additional observations from a re-analysis of the deposited data

Results flagged for a closer look

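For 7 results the array pairs moved in opposite directions between the groups compared. None of these differences between groups was tested, since each group has 1 array. Apold1 differed between genotypes by -1.52 under GF and 2.16 under SPF housing, 3.67 apart, and its second probe by -1.26 and 1.50, 2.76 apart. The same second probe differed between GF and SPF housing by -0.95 in KO-labelled and 1.81 in WT cells, a difference of -2.76 as KO minus WT. Tek differed between genotypes by -0.44 under GF and 0.42 under SPF housing, 0.86 apart, with each value under 2 scanner errors. The Kdr probe printed 10 times differed between housings by 0.20 in KO-labelled and -0.29 in WT cells, 0.49 apart. Of the other vessel genes, Cldn5 differed between genotypes by -1.73 under GF and 1.33 under SPF housing, 3.07 apart, and Pgf by -1.15 and 1.17, 2.32 apart. Further vessel genes outside these rules also turned round, such as Selp (-0.92 under GF and 1.45 under SPF housing), Icam1 (-1.14 and 0.93) and Procr (-1.58 and 0.58).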

How the results depend on the processing

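The 36 member differences were recomputed under 9 alternatives, giving 324 values, of which 244 moved by less than the scanner error and 80 by more; 13 had the other sign, all of them in differences of Kdr, Tek, Esm1 or Apold1 that were below 2-fold. With the probe printed most often, Kdr differed between genotypes by -1.18 under SPF housing, and between housings in WT cells by -0.29. In the SPF pair Esm1, Plvap and Apold1 stayed past 2-fold in 9 of 9 alternatives. In the GF pair Apold1 and Pecam1 did so in 9, Emcn and Esm1 in 8, Cdh5 and Flt1 in 7 and Plvap in 5. Some alternatives could not move a gene, which raises these counts and the 244. Keeping only genes above background on all arrays left the values of all 9 genes as they were. The mean over probes could change only Plvap, Kdr and Apold1, and the probe printed most often only Kdr. Under the deposited table the GF pair had 4 genes lower and a median of -0.86, KO-labelled cells had 3 genes higher and 0 lower in GF than SPF housing with a median of 0.85, and the median of the SPF minus GF genotype differences was 0.25, against 0.62 as reported. Median scaling gave medians of -1.37 in the GF pair and 0.23 between housings in KO-labelled cells, and quantile and cyclic loess scaling gave 1 gene higher there. Normexp gave 3 genes lower in the GF pair and medians of -0.75 in the GF and -0.16 in the SPF pair. Between housings it gave 0 genes lower with a median of 0.21 in KO-labelled cells, and 1 gene higher with a median of 0.66 in WT cells. The cause of these changes was not tested. Over all genes the GF pair had 1382 higher and 1220 lower as reported, 2291 and 571 in the deposited table, 903 and 2506 with median scaling, 294 and 354 with normexp, and 515 and 810 above background on all arrays; its all-gene median was -0.20, 0.08 in the deposited table and -0.43 with median scaling. The SPF pair had 835 and 983, against 180 and 93 with normexp and 443 and 332 above background on all arrays. Between housings KO-labelled cells had 3363 and 2400, against 4612 and 1501 in the deposited table, 2587 and 3503 with median scaling, 1222 and 1250 with normexp and 1769 higher above background on all arrays; WT cells had 2734 and 1478, against 1007 and 442 with normexp and 1504 and 874 above background on all arrays. No paired analysis was possible because each group has 1 array and the labels carry no replicate numbers. Dim genes such as Tek, Emcn and Esm1 lie where repeated spots spread most.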

Other observations

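Of 6 matched genes of lymphatic endothelium, the vessels that drain tissue fluid, 4 were measured between housings in KO-labelled and 5 in WT cells. Of these, 2 were at least 2-fold higher and 1 lower in GF than in SPF cells of either genotype. Among all genes 21.6% were higher and 15.4% lower in KO-labelled cells, and 17.5% and 9.44% in WT cells. Lyve1, a hyaluronan receptor of lymphatic vessels and of some macrophages, read 3.23 in KO GF, 3.36 in WT GF, -2.63 in KO SPF and -2.38 in WT SPF cells, with both GF arrays high. Mmrn1, a secreted protein of lymphatic vessels and platelets, was above background on the GF arrays only, at least 4.91-fold higher in KO-labelled and at least 7.34-fold higher in WT cells. Prox1, the transcription factor that defines lymphatic identity, read -2.59 in KO GF, -2.58 in WT GF, -2.84 in KO SPF and -2.73 in WT SPF cells, and Reln was not above background on any array. Pdpn, which fibroblasts and macrophages also express, was lower in GF housing, by -2.54 ± 0.22 in KO-labelled and -1.80 ± 0.21 in WT cells. In the genotype pairs 0 of 5 measured lymphatic genes passed 2-fold under GF housing and 0 of 4 under SPF housing.

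Of 6 mast cell genes, Kit and Tpsb2 were above background on all 4 arrays, and Cpa3, Fcer1a, Mcpt1 and Mcpt2 on none. Of 6 T cell genes, Cd3e, Lck and Cd4 were above background on all 4 arrays. Cd3d was above background on the SPF arrays only, Cd3g on the WT GF array only and Cd8a on none. Cd4, which macrophages can also express, read 4.47 in KO GF, 5.18 in WT GF, 3.38 in KO SPF and 3.30 in WT SPF cells. Hey2, an arterial repressor, was not above background on any array either.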
